A study of Homo sapiens with 16 samples.

Results

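The genes described here encode the subunits of the respiratory chain and of the ATP synthase that are made from nuclear DNA. They were picked by symbol: protein-coding genes whose names begin with NDUFA, NDUFB, NDUFC, NDUFS or NDUFV, with UQCR, with COX4 to COX8, or with ATP5, to which CYC1 and SDHA to SDHD were added. This gave 99 of the 58302 gene identifiers in the count tables, 19708 of which were protein-coding. Of the 99 genes, 37 encode subunits of complex I, 4 of complex II, 10 of complex III, 19 of complex IV and 19 of complex V, the ATP synthase. The prefixes also took in 8 assembly factors, NDUFAF1 to NDUFAF8, which build complex I without staying in it, and 2 read-through genes that join a subunit gene to its neighbour. NDUFA4 and its paralog NDUFA4L2 were counted with complex IV, where the NDUFA4 protein sits.

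Complexes I and II pass electrons from NADH and succinate to coenzyme Q, complex III passes them on to cytochrome c, and complex IV hands them to oxygen. Complexes I, III and IV pump protons across the inner mitochondrial membrane while doing so, and complex V lets the protons flow back to make ATP. Most subunits are translated on cytosolic ribosomes and imported, and a small core of complexes I, III, IV and V is translated inside the mitochondrion, so each of these complexes draws on mRNAs of both compartments.

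The cells were HEK293, a long-used line derived from human embryonic kidney, in which Gemin5, an RNA-binding protein that delivers small nuclear RNAs for assembly and binds ribosomes, was silenced with a small interfering RNA (siRNAG5) or not (Ctrl). RNA was taken from cytoplasmic lysates (Input) and from the pooled polysomal fractions of sucrose gradients (Polysome), which gave 16 libraries, 4 in each of the groups Input Ctrl, Input siRNAG5, Polysome Ctrl and Polysome siRNAG5. By the study's description each lysate gave both Input and Polysome RNA. The main fits did not use this pairing. Ctrl cultures are untreated according to the labels, whereas the study's methods name a control siRNA, so the Ctrl cells are known here only as cells without the Gemin5 siRNA. The study describes the 4 samples of each condition as independent biological samples, and no clone, sex or age applies to the groups beyond the shared cell line.

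GEMIN5 was measured first as a check of the labels. Its normalised read count, in counts per 1e+06 reads on genes (CPM), was 15.9, 18.9, 16.01 and 20.7 in the 4 Input Ctrl libraries and 7.46, 6.51, 6.22 and 6.68 in Input siRNAG5. In Polysome it was 5.50, 7.21, 7.76 and 9.28 in Ctrl and 2.10, 3.08, 3.05 and 2.35 in siRNAG5. The groups did not overlap in either fraction, and GEMIN5 fell in both (log2 FC -1.40, SE 0.12, adjusted p 3.11e-10 in Input; log2 FC -1.44, SE 0.21, adjusted p 0.00477 in Polysome). SE is the standard error, and adjusted p values throughout are those of edgeR's quasi-likelihood test after Benjamini-Hochberg adjustment over all genes tested.

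Reads on genes numbered 11145324 to 24511299 per library, and between 4.88% and 6.04% of reads in Input libraries but 21.2% to 42.4% in Polysome libraries aligned to several places and were not counted on genes. All 6 HEK293-expressed marker genes had reads in every library. The 15 liver marker genes together stood at 101 to 180 CPM in Polysome Ctrl and at 0.59 to 1.13 CPM in the siRNAG5 libraries. Input Ctrl was split. Ctrl 3 and 4 stood at 114 and 103 CPM with reads on all 15 genes, and Ctrl 1 and 2 at 2.02 and 0.831 CPM. The 5 blood genes and 6 muscle and heart genes reached at most 3.14 and 1.25 CPM. The part of liver RNA in the results was not tested. Polysome Ctrl 1, siRNAG5 1 and siRNAG5 4 lay at 10.9 to 36.1 on the second principal component of the Polysome libraries, which held 30.5% of the variance over all genes tested, and the other 5 lay at -31.3 to -2.41. The first component, with 47.4% of the variance, set Polysome Ctrl 1 and 2 (44.2 and 36.2) and siRNAG5 2 and 3 (-43.3 and -41.4) apart. These ends run with the treatment. Among the other 4 libraries, however, Ctrl 3 and 4 (0.55 and 0.74) lay between siRNAG5 1 and 4 (-2.77 and 5.74). On the second component siRNAG5 1 and 4 lay at 36.1 and 32.9, and siRNAG5 2 and 3 at -2.41 and -2.74. Ctrl 1, at 10.9, lay nearer to the latter pair. This component therefore does not by itself mark Ctrl 1, siRNAG5 1 and siRNAG5 4 as a set. They were picked from earlier results of these data and are called below the 3 libraries that stood apart. Counts and medians that rest on Polysome libraries are given with and without these 3 libraries.

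Of the 99 genes, 88 had enough reads to be tested in each comparison between groups, and COX6B2 could be tested in addition in siRNAG5 cells. Several genes for tissue isoforms of complex IV gave no reads. COX4I2, COX6A2, COX7A1 and COX7B2 had 0 of the 257849346 reads on genes in the 16 libraries, which allows at most 0.0116 CPM each for 3 reads over all libraries, counting error only. Their partners were plentiful in Input Ctrl, with COX4I1, the common form of subunit 4, at 1583, 1643, 1610.3 and 1507 CPM. COX6A1 stood at 299, 311, 354 and 292 CPM there, and COX7A2 at 646, 670.0, 646 and 579.9 CPM. COX6B2 and COX8C, known from testis, stayed at or below 0.969 and 0.47 CPM in every library. NDUFA13, NDUFA7 and NDUFV2 had only 80, 65 and 76 reads in all, and 83.9%, 77.9% and 89.965% of the exon bases of their canonical transcripts also lie in another gene of the same strand in GENCODE v44. Reads on more than 1 gene, 4.14% to 7.41% of the reads of a library, were set aside by the authors as ambiguous, and their part in these low counts was not tested. SDHA, NDUFA11, NDUFB8 and ATP5PO also share over 50% of their exon bases (69.4%, 68.2%, 72.0% and 63.8%), so that their levels are uncertain, while 78 of the 99 genes share no exon base with a gene of the same strand. UQCRHL is a near copy of UQCRH, and reads of the pair may have been split between them.

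Sequences of the transcript start are shown because a C followed by a run of pyrimidines there is the mark of 5' terminal oligopyrimidine (TOP) mRNAs, a class that includes ribosomal protein mRNAs and that the study examined. RefSeq's promoter table (GRCh38.p14) held 78 of the 99 genes. In each window the 15 bases before the annotated start are in lower case and the first 10 transcribed bases in capitals, on the strand of the gene. The first 9 begin with C and at least 4 further pyrimidines, and the last 4, NDUFB10, ATP5MC1, SDHA and ATP5F1A, do not and are shown for contrast because the comparisons turn on them.
UQCRH (chr1:46303683-46303707, plus strand): tgacccttacaagtcCTTCTTGATC
COX7A2L (chr2:42361208-42361232, minus strand): ccggggaggcggggtCCTTCTCTGG
NDUFC1 (chr4:139302542-139302566, minus strand): tcgcaatgggccccaCCTCCCGAGA
COX7C (chr5:86617926-86617950, plus strand): ccatttcccatctttCTTTTCAGTC
ATP5MG (chr11:118401591-118401615, plus strand): ggtcctgcagcgggtCCTTCCGGCG
ATP5MC2 (chr12:53676074-53676098, minus strand): cttcccgctgctccgCCCCTCTCTG
COX4I1 (chr16:85799680-85799704, plus strand): cggcgcggccttgctCTCTTCCGGT
ATP5F1E (chr20:59032326-59032350, minus strand): cttctgtggtctgatCTTCCTGCGG
ATP5PO (chr21:33915795-33915819, minus strand): cccttgcgcgtttctCTCTTCCCAC
NDUFB10 (chr16:1959523-1959547, plus strand): ccctcggcgtcctctGTAGCGGGCG
ATP5MC1 (chr17:48892772-48892796, plus strand): gaatggagaaggtccAGGACACGTG
SDHA (chr5:218305-218329, plus strand): aggcgcagtctgcgcAGGGACTGGC
ATP5F1A (chr18:46104218-46104242, minus strand): gtcgaaggctctggcATTGCAAGCC
The 9 genes with a pyrimidine start made up 11.5% of the 78, against 4.66% of 15289 protein-coding promoters and 62.9% of 70 cytosolic ribosomal protein genes in the same table. They encode the hinge protein of complex III (UQCRH), a complex I subunit (NDUFC1), subunits 4 and 7c of complex IV (COX4I1 and COX7C), a factor that joins complexes III and IV in supercomplexes (COX7A2L), and the ATP synthase subunits g, c, epsilon and OSCP (ATP5MG, ATP5MC2, ATP5F1E and ATP5PO). An annotated start is a single position, and the starts used in these cells were not measured.

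Promoters of these genes are known for binding sites of nuclear respiratory factor 1 (NRF1) and of the ETS factor GABP. The NRF1 core GCGCANGCG, searched on both strands from 250 bases before to 50 bases after the start, was found in 24 of 78 promoters (30.8%), against 11.1% of all protein-coding promoters of the same length. The ETS core CCGGAAG was found in 21 (26.9% against 14.4%), and 40 held at least 1 of these motifs (51.3% against 23.1%). Promoters of mitochondrial and cytosolic ribosomal protein genes held the ETS core in 42.0% and 32.9%, and the NRF1 core in 18.8% and 11.4%. At least 1 motif was found in 55.1% and 42.9% of them. The NRF1 core reads nearly alike on both strands, so 1 stretch can match on each. Examples from genes named in the text are shown with the NRF1 match in capitals.
NDUFA8 (chr9:122159767-122159791, minus strand): tgccggatGCGCATGCGcaggcgcc
NDUFS6 (chr5:1801353-1801377, plus strand): gaagccgtGCGCATGCGttagcgct
UQCRFS1 (chr19:29213165-29213189, minus strand): cctcctcgCGCCTGCGCcgtggttg
COX6A1 (chr12:120437886-120437910, plus strand): agggcacaCGCATGCGCacgaagga
ATP5MC2 (chr12:53676108-53676132, minus strand): ccgggtcaCGCATGCGCtgagcctt
ATP5ME (chr4:674479-674503, minus strand): cagcaactGCGCAGGCGcagccgat
Such a match is a description of the letters only, and the median change on silencing was -0.34 in Input both for the 23 tested genes with the NRF1 core and for the 47 without it.

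Levels of different genes were set side by side as reads per kilobase of merged exons per 1e+06 reads (RPKM), for which the median over the 88 genes was 177 in Input Ctrl, and between 172.5 and 181.8 when each Input Ctrl library was left out. With the length of the canonical transcript alone the median was 458, so the level depends on the length used. On the merged exons NDUFA1, a membrane subunit of complex I, was the highest at 1879 ± 157 RPKM (SD, n = 4) in Input Ctrl, followed by NDUFS5 at 1602 ± 107 and UQCRH at 1112 ± 59.3. ATP5F1B, the catalytic beta subunit of the ATP synthase, stood at 1022 ± 43.4 RPKM. The means of NDUFA1 and NDUFS5 differed by more than the sum of their SDs, and those of UQCRH and ATP5F1B by less. Among the complexes, the median RPKM in Input Ctrl was 329 for complex IV, 264 for complex V, 180 for complex III, 112 for complex I, 63.8 for complex II and 15.9 for the complex I assembly factors. The order was the same in Input siRNAG5 and Polysome Ctrl, and in Polysome siRNAG5 complex II (68.9) was above complex I (64.8). The order also depends on the length used: with canonical lengths complex I (443) was above complex III (340.2) in Input Ctrl.

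The first comparison asks what silencing of Gemin5 did to the level of these mRNAs in the cytoplasm. In Input the subunit mRNAs were lower in siRNAG5 cells in all complexes but complex II, where the values were mixed. Of 88 genes tested, 15 were called lower, which means an adjusted p under 0.05 and a log2 FC below -0.5. The same call was made for 6.02% of all genes tested. Of these 15 genes 5 were complex I assembly factors, and 10 were among the 80 tested subunits of complexes I to V (12.5%). None of the 88 was called higher, by edgeR or by DESeq2, against 10.5% of all genes, and 1 gene was higher at an unadjusted p under 0.05. At any size of change, 65 of the 88 fell (19.1% of all genes) and 0 rose (17.9%). For 63 genes the highest siRNAG5 library was under the lowest Ctrl library (19.1% of all genes), and the reverse held for 0 genes (15.1%). The median log2 FC was -0.31, against 0.04 over all genes tested, and 81 of 88 values were below 0. Short genes fell more in general. Over the 64 genes with a coding length under 600 bases the median was -0.33, against -0.17 over all genes of that class. Over the 24 longer ones it was -0.23, against 0.05. The share of reads on genes that went to the 99 genes was 3.53% on average in Input Ctrl (3.42% to 3.63%) and 3.02% in Input siRNAG5 (2.97% to 3.15%), without overlap. In bulk samples fewer cells of a type and less RNA per cell cannot be told apart. Input Ctrl 3 and 4, but no Input siRNAG5 library, had reads on all 15 liver markers. Their part in this comparison was not tested.

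**Figure D1:**
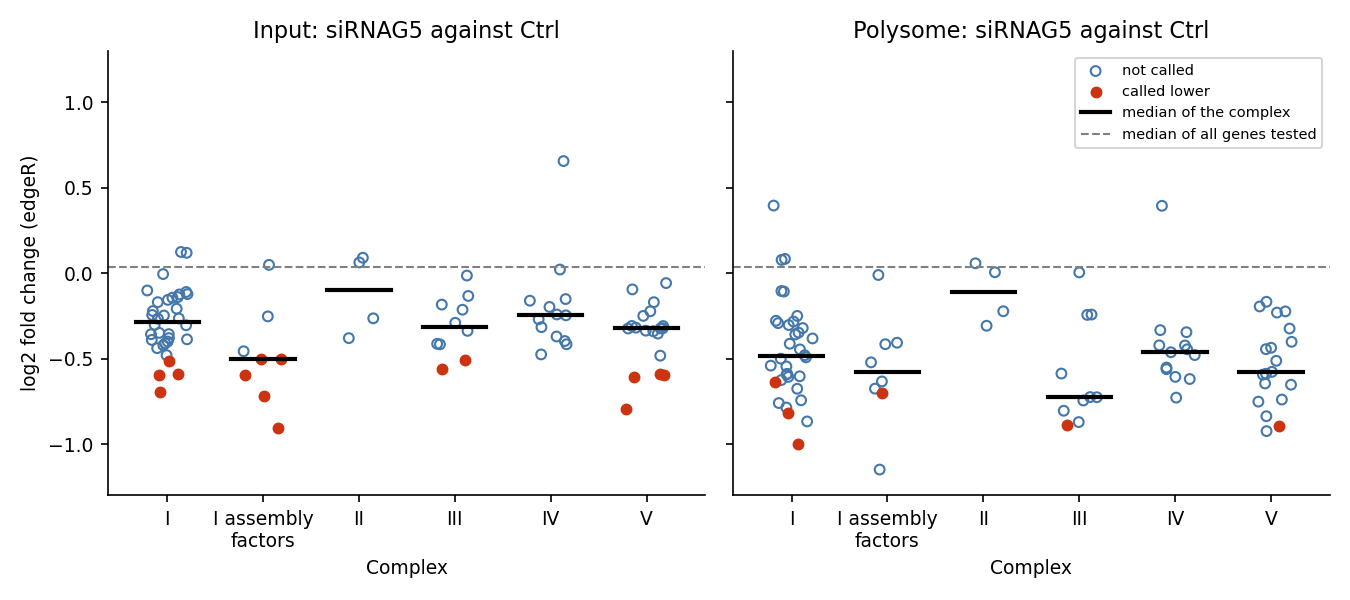
Change of each of the 88 tested genes on Gemin5 silencing (y axis, log2 fold change of siRNAG5 against Ctrl) by complex (x axis), in Input (left) and Polysome (right). Each circle is a gene, filled red circles were called lower, black bars are medians of a complex and the dashed line is the median of all genes tested. In Input the medians run from -0.50 (complex I assembly factors) to -0.10 (complex II), and in Polysome from -0.73 (complex III) to -0.11 (complex II).

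In complex I, 22 of 34 subunit mRNAs fell, 4 of them past the size limit, and the median log2 FC was -0.28. The largest change was that of NDUFB10, a subunit of the membrane arm, which counted 1001, 1050.2, 1035 and 948 CPM in Ctrl and 616, 617, 647 and 588 CPM in siRNAG5 (log2 FC -0.70, SE 0.06, adjusted p 3.75e-10). The groups were separated by a wide margin. NDUFAB1, the mitochondrial acyl carrier protein that also serves fatty acid synthesis, counted 556, 644, 591 and 563 CPM in Ctrl and 358, 389, 422 and 383 CPM in siRNAG5 (log2 FC -0.59, SE 0.07, adjusted p 3.71e-08). NDUFB2 and NDUFA8, accessory subunits, were called lower as well (log2 FC -0.59, SE 0.07, adjusted p 4.15e-08 and log2 FC -0.51, SE 0.07, adjusted p 3.39e-07). Other subunits fell by less than the size limit, such as NDUFS3, a core subunit of the arm that reaches into the matrix (log2 FC -0.38, SE 0.06, adjusted p 2.14e-05). NDUFS1, the largest iron-sulfur subunit, counted 74.9, 76.6, 81.0 and 77.0 CPM in Ctrl and 81.1, 89.9, 78.3 and 83.8 CPM in siRNAG5, and its groups overlapped only at the edge between 78.3 and 81 CPM (log2 FC 0.12, SE 0.07, adjusted p 0.186). NDUFV1, which binds the flavin that takes electrons from NADH, did not pass the test (log2 FC -0.14, SE 0.06, adjusted p 0.0759), nor did NDUFA5 (log2 FC 0.12, SE 0.09, adjusted p 0.283), the highest value of the complex.

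The assembly factors of complex I had a lower median than the subunits of any complex, at -0.50, and 7 of 8 fell, 5 of them past the size limit. NDUFAF8, which works with NDUFAF5, had the largest change of all 88 genes. It counted 365, 404, 375 and 343 CPM in Ctrl and 189, 185, 232 and 182 CPM in siRNAG5 (log2 FC -0.90, SE 0.07, adjusted p 1.76e-10), and its lowest Ctrl library was well above the highest siRNAG5 library. NDUFAF4 counted 127, 148, 131 and 124 CPM in Ctrl and 69.0, 83.5, 82.7 and 83.7 CPM in siRNAG5 (log2 FC -0.72, SE 0.08, adjusted p 1.37e-08). NDUFAF6, NDUFAF5 and NDUFAF2 were called lower too (log2 FC -0.60, -0.51 and -0.50). NDUFAF7, a methyltransferase that modifies a core subunit, stood at 0.05 (SE 0.09) and did not pass. Complex I assembly factors outside the symbol rule and those of the other complexes, 42 tested genes in all, had a median of -0.16, with 18 lower and 1 higher at an adjusted p under 0.05 and 5 called lower, among them TMEM70 (log2 FC -0.70, SE 0.07, adjusted p 1e-08), which assists the ATP synthase, COA3 of complex IV (log2 FC -0.66, SE 0.07, adjusted p 3.82e-08) and SDHAF2 of complex II (log2 FC -0.66, SE 0.14, adjusted p 0.000341).

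In complex II, which also belongs to the tricarboxylic acid cycle and has no subunit made inside the mitochondrion, 2 of 4 mRNAs fell and 0 were called. SDHB, the iron-sulfur subunit, counted 421, 449.8, 412 and 398 CPM in Ctrl and 303, 328, 321 and 328 CPM in siRNAG5 without overlap (log2 FC -0.38, SE 0.06, adjusted p 1.33e-05). SDHC, a membrane anchor, fell too (log2 FC -0.26, SE 0.07, adjusted p 0.00176). SDHA, the flavoprotein subunit, counted 177, 188, 207 and 201 CPM in Ctrl and 213, 206, 203 and 193 CPM in siRNAG5, which overlapped (log2 FC 0.09, SE 0.07, adjusted p 0.298). SDHD, the other anchor, had 1 low library among the siRNAG5 samples, at 77.1 CPM against 111 to 114 CPM in the others, and its log2 FC was 0.06 (SE 0.09).

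In complex III, 7 of 10 mRNAs fell, with a median of -0.31. UQCRFS1, the Rieske iron-sulfur protein, counted 533, 588, 527 and 488 CPM in Ctrl and 339.6, 365, 357 and 373 CPM in siRNAG5 (log2 FC -0.56, SE 0.06, adjusted p 6.19e-08), and UQCR10 was the other gene called lower (log2 FC -0.51, SE 0.06, adjusted p 1.7e-07). CYC1, cytochrome c1, fell by less (log2 FC -0.29, SE 0.07, adjusted p 0.000788). The core proteins differed: UQCRC1 fell slightly (log2 FC -0.21, SE 0.06, adjusted p 0.00969), and UQCRC2 stood at 330.0, 353, 332 and 334 CPM in Ctrl and 332, 349.9, 329 and 313 CPM in siRNAG5, which overlapped (log2 FC -0.01, SE 0.06, adjusted p 0.874). CYCS, the mobile cytochrome c that complex III reduces, fell as well (log2 FC -0.50, SE 0.09, adjusted p 2.64e-05).

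In complex IV, 11 of 13 tested mRNAs fell, all by less than the size limit, and the median was -0.25. COX6B1, on the side of the intermembrane space, was the lowest, with 835, 902, 880.5 and 791 CPM in Ctrl and 607, 613, 629 and 581 CPM in siRNAG5 (log2 FC -0.48, SE 0.06, adjusted p 3.58e-07). COX5B (log2 FC -0.42, SE 0.06, adjusted p 6.84e-06) and COX5A (log2 FC -0.25, SE 0.06, adjusted p 0.00155), subunits on the matrix side, fell without overlap between the groups, whereas the fall of COX4I1 was small (log2 FC -0.15, SE 0.06, adjusted p 0.0416). COX7A2L counted 142, 133, 127 and 133 CPM in Ctrl and 138, 142, 128 and 128 CPM in siRNAG5, and its groups overlapped (log2 FC 0.02, SE 0.06, adjusted p 0.831). NDUFA4L2, known as a hypoxia-responsive paralog, had the highest value of all 88 genes but only 0.597 to 1.67 CPM in Input, and its difference did not pass (log2 FC 0.65, SE 0.32, adjusted p 0.105).

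In complex V, 16 of 19 mRNAs fell, 4 past the size limit, and the median was -0.32. Subunit c, which forms the rotating ring, is encoded by ATP5MC1, ATP5MC2 and ATP5MC3, whose precursors give the same mature protein, and these 3 mRNAs had different changes. ATP5MC1 counted 641, 740.0, 675 and 639 CPM in Ctrl and 372, 375, 411 and 379 CPM in siRNAG5 (log2 FC -0.80, SE 0.06, adjusted p 1.49e-10). ATP5MC3 counted 1205, 1290.0, 1208 and 1128 CPM in Ctrl and 742, 785, 838 and 802 CPM in siRNAG5 (log2 FC -0.60, SE 0.06, adjusted p 8.71e-09). Both pairs of groups were far apart. ATP5MC2 counted 1319, 1422, 1408 and 1319 CPM in Ctrl and 1255, 1226, 1202 and 1132 CPM in siRNAG5, also without overlap (log2 FC -0.17, SE 0.06, adjusted p 0.0231). The difference between the changes of these 3 genes was not tested. ATP5MK and ATP5ME, small membrane subunits linked to dimers of the enzyme, were called lower (log2 FC -0.61, SE 0.07, adjusted p 7.32e-08 and log2 FC -0.59, SE 0.07, adjusted p 4.1e-08). Of the catalytic head, ATP5F1B fell (log2 FC -0.31, SE 0.06, adjusted p 8.01e-05) and ATP5F1A, its alpha partner, did not pass (log2 FC -0.06, SE 0.06, adjusted p 0.45). ATP5IF1, the inhibitor of the enzyme, fell by less than the size limit (log2 FC -0.22, SE 0.06, adjusted p 0.00599).

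**Figure D2:**
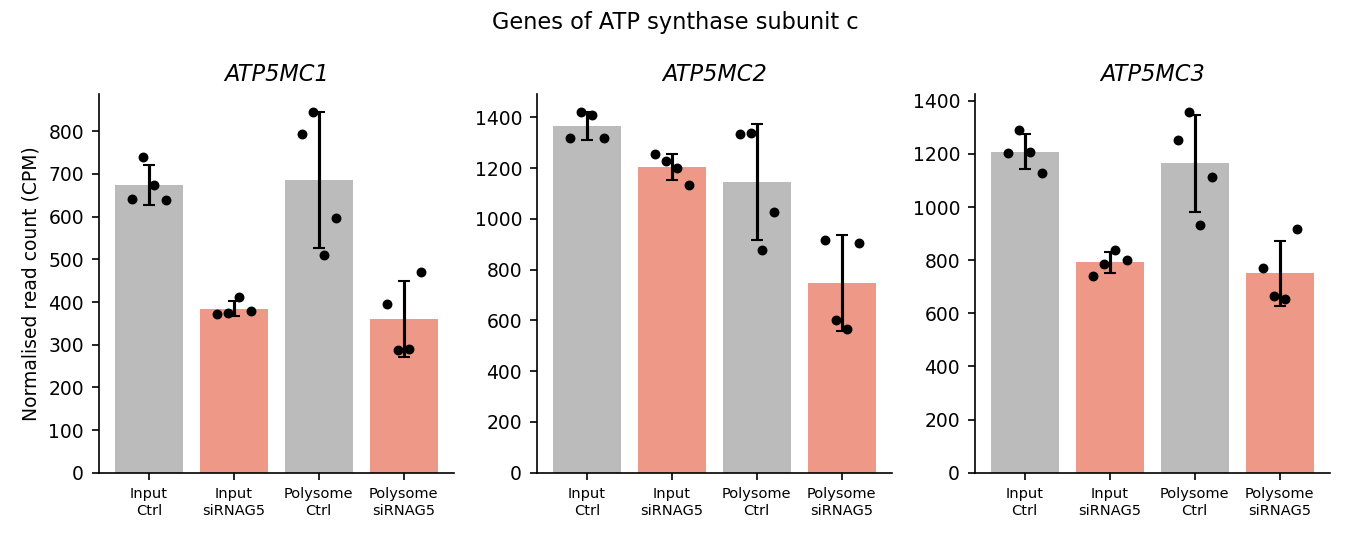
Normalised read count (y axis, CPM) of the 3 genes of ATP synthase subunit c in the 4 groups (x axis). Bars are means of 4 libraries, error bars are SD and points are single libraries. In Input, ATP5MC1 fell from 639 to 740 CPM in Ctrl to 372 to 411 CPM in siRNAG5, and ATP5MC2 from 1319 to 1422 CPM to 1132 to 1255 CPM.

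The second comparison asks the same of the mRNAs in polysomes. In Polysome 6 of 88 genes were called lower, against 4% of all genes tested, and none was called higher by edgeR or by DESeq2, against 3.95%, with 0 higher at an unadjusted p under 0.05 (14.4% of all genes) and 44 lower (13.3%). The called genes were NDUFB10 (log2 FC -0.998, SE 0.25, adjusted p 0.0364), NDUFS6 (log2 FC -0.82, SE 0.22, adjusted p 0.0441), a zinc-binding complex I subunit, NDUFA8 (log2 FC -0.64, SE 0.17, adjusted p 0.0409), NDUFAF2 (log2 FC -0.70, SE 0.19, adjusted p 0.0442), UQCRHL (log2 FC -0.89, SE 0.24, adjusted p 0.0444) and ATP5MC1 (log2 FC -0.89, SE 0.23, adjusted p 0.0364). NDUFB10, NDUFA8, NDUFAF2 and ATP5MC1, 4 of these 6 and 4 of the 15 called in Input, were called lower in both fractions. The share of all genes called lower in both was not counted, so this overlap has no background to be read against. The median over the 88 genes was -0.50, against 0.03 over all genes, and 81 values were below 0. Over the 64 genes with a coding length under 600 bases it was -0.59, against -0.28 over all genes of that class. Over the 24 longer ones it was -0.28, against 0.07. All 6 called genes were among the 64, and 9.18% of all genes under 600 bases were called lower, against 3.58% of longer ones. By complex the medians were -0.49 for complex I, -0.58 for its assembly factors, -0.11 for complex II, -0.73 for complex III, -0.46 for complex IV and -0.58 for complex V. At any size of change 6 fell (4.09% of all genes) and 0 rose (4.02%). The siRNAG5 and Ctrl groups did not overlap for 23 genes, each lower in siRNAG5 (10% of all genes), and for 0 genes higher (8.29%). Liver markers moved with this comparison: all 15 had reads in every Polysome Ctrl library and 3 to 5 of them in the siRNAG5 libraries, and their part in the result was not tested.

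Single values show how these Polysome groups spread. NDUFB10 counted 1149, 1055, 687 and 755 CPM in Ctrl and 535, 332, 329.6 and 586 CPM in siRNAG5. ATP5MC1 counted 794, 846, 510.4 and 597 CPM in Ctrl and 395, 288, 289.9 and 471 CPM in siRNAG5. In both genes Ctrl 1 and 2 were the high Ctrl libraries and siRNAG5 1 and 4 the high siRNAG5 libraries, yet the groups did not overlap. NDUFAF8 counted 285, 291, 156 and 159.7 CPM in Ctrl and 128, 44.6, 73.6 and 147 CPM in siRNAG5, and its change, the largest of the 88 genes, did not pass (log2 FC -1.15, SE 0.35, adjusted p 0.062). UQCRQ, a small complex III subunit, counted 989, 1042, 622 and 663 CPM in Ctrl and 609.6, 264, 318 and 662 CPM in siRNAG5 (log2 FC -0.81, SE 0.31, adjusted p 0.119). Its siRNAG5 4 library lay between Ctrl 3 and Ctrl 4, within the range of the Ctrl group. SDHA, by contrast, was low in the 3 libraries that stood apart, with 38.1, 64.8, 89.97 and 92.1 CPM in Ctrl and 53.0, 100.0, 89.5 and 43.2 CPM in siRNAG5 (log2 FC 0.06, SE 0.30, adjusted p 0.929).

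**Figure D3:**
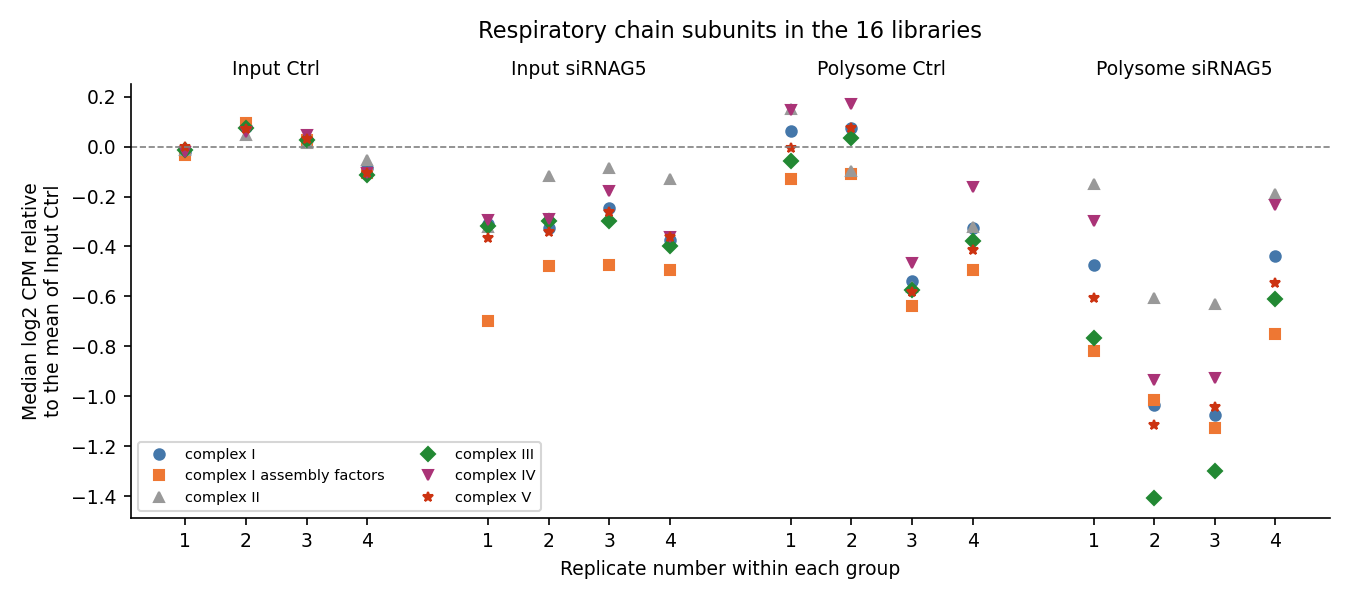
Median log2 CPM of the genes of each complex relative to their mean in Input Ctrl (y axis) in each of the 16 libraries (x axis, replicate number within the group named above). Input libraries of a group lie close together and the siRNAG5 libraries lie below Ctrl, while Polysome Ctrl 1 and 2 lie above Ctrl 3 and 4, and Polysome siRNAG5 1 and 4 above siRNAG5 2 and 3.

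The number of calls in Polysome rested on single libraries. Left out one at a time, Ctrl 1, 2 or 4 or siRNAG5 1, 2 or 3 took the count from 6 to 0, Ctrl 3 took it to 15 and siRNAG5 4 to 18, whereas the median of the 88 genes stayed between -0.62 and -0.37. Without the 3 libraries that stood apart, 61 of 88 genes were called lower (12.1% of all genes) and 0 higher (9.02%), with a median of -0.78 from 3 Ctrl and 2 siRNAG5 libraries. With the 2 sets of libraries as a term in the fit the count was 60 (12% of all genes), with DESeq2 27 (7.64%), with length and GC offsets 18 (6.27%), and with all 16 libraries in one fit 46 (10.2%). Within the 3 libraries that stood apart, 1 Ctrl and 2 siRNAG5, the median difference was -0.45 (0.02 over all genes) with 80 of 88 genes lower. Within the other 5, 3 Ctrl and 2 siRNAG5, it was -0.79 (0.0009 over all genes) with 83 of 88 lower. Lower without overlap were 78 genes in the first set (38.3% of all genes) and 77 in the second (31.1%). These genes share the same few libraries, so the counts are a description. Of the 61 genes called without the 3 libraries, 23 belonged to complex I, 6 were its assembly factors, 7 belonged to complex III, 11 to complex IV, 14 to complex V and 0 to complex II. By coding length 53 of 64 genes under 600 bases and 8 of 24 longer ones were called, against 40.4% and 7.3% of all genes of these classes, so the short genes of the set have a higher background than the 12.1% of all genes. Multi-mapped reads made up 26.6% to 42.4% of the reads of these 3 libraries and 21.2% to 32.8% of the other 5, and the part of these reads in the result was not tested. The 3 libraries were picked out from earlier results of these data, and leaving them out also takes away 2 of the 4 siRNAG5 libraries, those nearest to Ctrl 3 and 4 on the first component.

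A single fit of the 16 libraries tested whether silencing changed the mRNAs differently in the 2 fractions, with values that are the Polysome change less the Input change. None of the 88 genes, and none of 14958 genes tested in all (0% called in either direction), passed the edgeR test, while 6 of the 88 (4.69% of all genes) were lower at an unadjusted p under 0.05 and DESeq2 called 0 of the 88. The median difference was -0.19, against -0.06 over all genes, and 78 of 88 values were below 0. The lowest values were those of UQCRHL (log2 FC -0.73, SE 0.27, adjusted p 0.523) and of UQCRB (log2 FC -0.62, SE 0.22, adjusted p 0.52), a complex III subunit that contacts coenzyme Q. UQCRH (log2 FC -0.56, SE 0.26, adjusted p 0.676), ATP5F1D (log2 FC -0.55, SE 0.26, adjusted p 0.676), the delta subunit of the ATP synthase stalk, COX7A2L (log2 FC -0.51, SE 0.17, adjusted p 0.486) and COX4I1 (log2 FC -0.48, SE 0.23, adjusted p 0.685) followed. Without the 3 Polysome libraries that stood apart, 25 of 88 genes were called lower (4.3% of all genes) and 0 higher (0.691%), with a median of -0.47. Of these, 10 belonged to complex I, 6 to complex III, 2 to complex IV and 7 to complex V. Of the 64 genes with a coding length under 600 bases 23 were called, and of the 24 longer ones 2, against 17.4% and 1.56% of all genes of these classes. For UQCRB the values behind this were 1091, 1087, 1021 and 906 CPM in Input Ctrl and 867, 940.0, 995 and 905 CPM in Input siRNAG5, which overlapped at the lower end of Ctrl. In Polysome UQCRB counted 835, 1054, 682 and 788 CPM in Ctrl and 589.7, 395, 396 and 596 CPM in siRNAG5, without overlap.

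The genes with the pyrimidine starts shown above were set beside the others, as a description that the choice of genes did not use. The Polysome change less the Input change had a median of -0.43 (-0.56 to -0.17) over the 9 genes and of -0.18 (-0.46 to 0.08) over the 61 other tested genes of the promoter table. UQCRHL, UQCRB and ATP5F1D, named above among the lowest differences, are not in the promoter table. They belong to neither set, so these ranges do not cover them. Of the 9 genes only ATP5PO, at 639 bases, has a coding length of 600 bases or more. For the same difference the median was -0.25 over the 64 tested genes under 600 bases and -0.09 over the 24 longer ones. Without the 3 libraries these medians were -0.54 and -0.11. The part of length in the contrast was not tested. In Input alone the medians were -0.25 and -0.35, and in Polysome alone -0.62 and -0.49. Over all tested protein-coding genes of the table the difference had a median of -0.17 for 549 genes with a pyrimidine start and of -0.05 for 9601 without, and over 43 cytosolic ribosomal protein genes with such a start it was -0.84. Without the 3 Polysome libraries that stood apart, 8 of the 9 and 13 of the 61 were called lower, with medians of -0.71 and -0.40. Of all protein-coding genes tested there, 18.3% of 553 with a pyrimidine start were called lower (11.6% of 510 without the cytosolic ribosomal proteins) and 2.86% of 9730 without one. COX4I1 shows the pattern in single libraries. It counted 1583, 1643, 1610.3 and 1507 CPM in Input Ctrl and 1409, 1416, 1506 and 1327 CPM in Input siRNAG5. In Polysome it counted 1399, 1428, 969 and 1095 CPM in Ctrl and 860.3, 635, 625 and 1009.9 CPM in siRNAG5, where siRNAG5 4 overlapped with Ctrl 3. ATP5MC2, with the longest run of 9 pyrimidines, had a difference of -0.43 (SE 0.24), and ATP5MC1 and ATP5MC3, which code for the same subunit, had -0.12 (SE 0.24) and -0.02 (SE 0.19). None of these single differences passed in all 16 libraries.

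**Figure D4:**
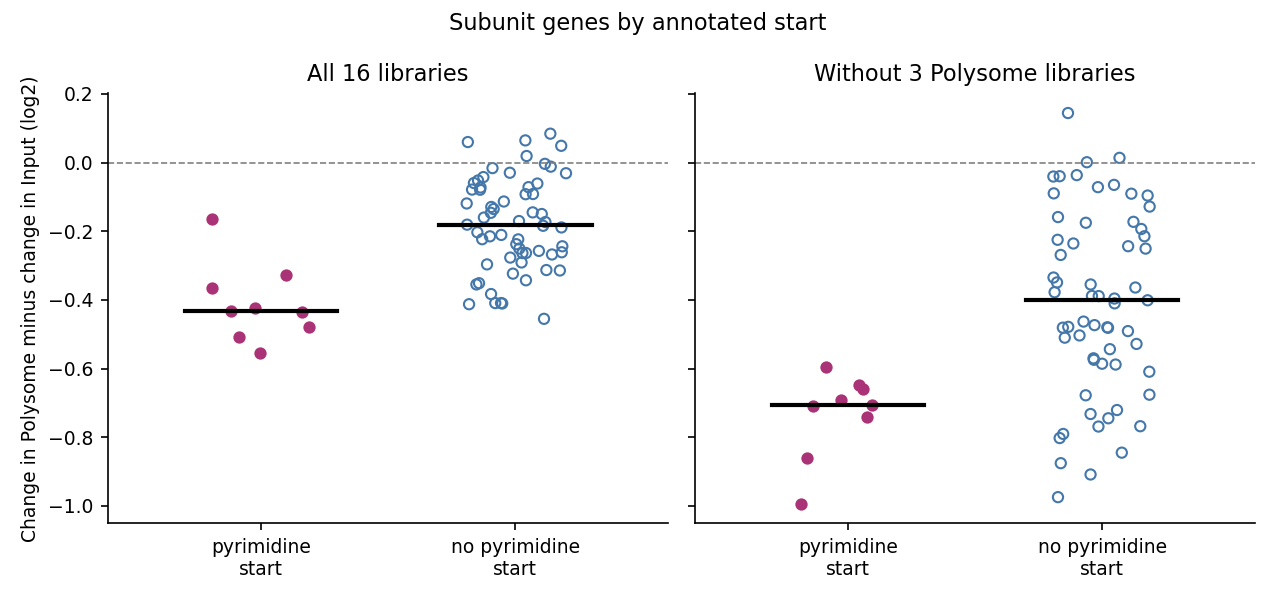
Polysome change less Input change on Gemin5 silencing (y axis, log2) for tested genes of the promoter table with a pyrimidine start (9 genes, filled) and without one (61 genes, open), with all 16 libraries (left) and without the 3 Polysome libraries that stood apart (right). Black bars are medians, which are -0.43 and -0.18 on the left and -0.71 and -0.40 on the right, and the 2 sets of points overlap in both panels.

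The remaining comparisons place the mRNAs in polysomes relative to Input within each treatment. TMM scaling puts a trimmed mean over genes at no change, and single genes can lie on either side of it. In Ctrl cells 12 of 88 genes were called lower in Polysome, against 18.8% of all genes tested, and 0 were called higher by edgeR or DESeq2, against 20.8%, with 2 higher at an unadjusted p under 0.05. At any size 20 were lower (23.2% of all genes) and 2 higher (24.3%), and the fractions did not overlap for 19 lower (23.2%) and 1 higher (21.2%). The share called lower among the 88 genes, 13.6%, was thus below that of all genes. The median was -0.15 (-0.03 over all genes). They included NDUFS1, NDUFA9, NDUFA10, NDUFAF7, NDUFAF8, SDHA, UQCRC1, UQCRC2, ATP5F1A, ATP5F1B and ATP5PB, the last of which forms part of the peripheral stalk of the ATP synthase. Without the 3 libraries that stood apart, of which only Ctrl 1 enters here, 11 were called lower (19.8% of all genes) and 0 higher (21.9%), with a median of -0.24. On another scale, the share of reads on genes that went to the 99 genes, the direction was the opposite: it was 4.41% on average in Polysome Ctrl (3.97% to 4.84%) against 3.53% in Input Ctrl (3.42% to 3.63%), without overlap. Values below 0 are therefore relative to TMM scaling. SDHA had the largest difference. It counted 177, 188, 207 and 201 CPM in Input and 38.1, 64.8, 89.97 and 92.1 CPM in Polysome (log2 FC -1.43, SE 0.20, adjusted p 3.42e-05), and every Polysome library lay far below every Input library. ATP5F1A counted 949.6, 994, 975 and 946 CPM in Input and 305, 584, 526 and 588 CPM in Polysome (log2 FC -0.94, SE 0.18, adjusted p 0.000446). In both genes Polysome Ctrl 1 was the lowest library. SDHC had the highest value (log2 FC 0.44, SE 0.12, adjusted p 0.00669), which passed the adjusted p but not the size limit.

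Of the 12 genes called lower, 11 were long ones of the set. The canonical coding length ran from 153 to 2181 bases over the 97 genes that are not read-throughs, with a median of 411, against 1257 over all protein-coding genes. Of 24 tested genes with a coding length of 600 bases or more, 11 were called lower and the median was -0.47, against 16.4% called lower and a median of 0.04 over the 10243 genes of that length class. Of 64 shorter genes 1 was called lower, NDUFAF8, and the median was -0.10, against 11.3% and -0.03 over 1503 genes. Without the 3 libraries that stood apart 8 of the 24 and 3 of the 64 were called lower (16.3% and 15.2% of all genes of these classes), with medians of -0.47 and -0.19. Spearman's rho between coding length and log2 FC was -0.56 over the 88 genes and 0.06 over 11746 genes, a description over genes that share the same libraries. In a fit with offsets for transcript length and GC content the median of the 88 genes turned to 0.22 (0.03 over all genes), with 9 called lower (18.4%) and 16 higher (18.6%), so the direction of the median depends on whether length and GC content are allowed for. SDHA and ATP5F1A kept their sign in it.

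**Figure D5:**
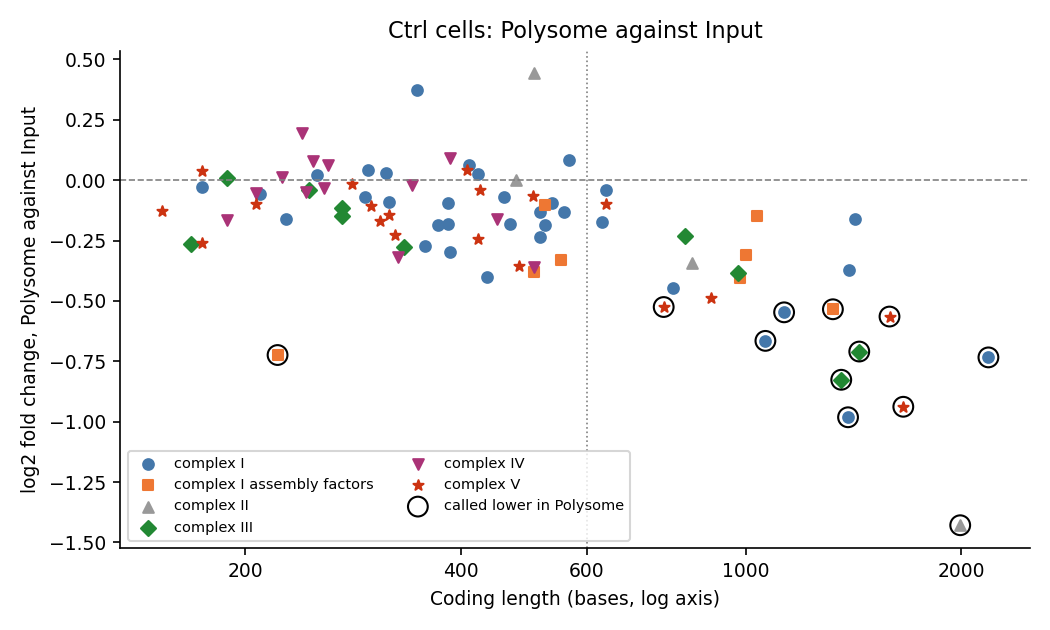
Polysome against Input in Ctrl cells (y axis, log2 fold change) by canonical coding length (x axis, bases, log axis) for the 88 tested genes. Symbols mark complexes, black rings mark the 12 genes called lower, and the dotted line is at 600 bases. Of the ringed genes 11 lie to the right of the line and 1, NDUFAF8, to the left.

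In siRNAG5 cells 23 of 89 genes were called lower in Polysome than in Input, against 21.2% of all genes, and 1 was called higher, SDHC, against 23.9%. At any size 32 were lower (25.2%) and 2 higher (27%), and the fractions did not overlap for 39 lower (27.5%) and 1 higher (22.9%). The median was -0.33 (-0.04 over all genes). Of the 12 genes called in Ctrl cells 10 were among these 23 (ATP5F1B and ATP5PB stood at -0.41 and -0.39), and the others included UQCRB (log2 FC -0.83, SE 0.16, adjusted p 0.000923), COX4I1 (log2 FC -0.78, SE 0.16, adjusted p 0.00169), UQCRHL (log2 FC -0.78, SE 0.19, adjusted p 0.0048), UQCRH (log2 FC -0.64, SE 0.19, adjusted p 0.0119), ATP5MC2 (log2 FC -0.61, SE 0.17, adjusted p 0.00903) and NDUFS6 (log2 FC -0.58, SE 0.17, adjusted p 0.0123). The comparison with Ctrl cells is the difference tested above, which passed for none of the genes in all 16 libraries. SDHC counted 145, 138, 147 and 145 CPM in Input and 192, 183, 187 and 221 CPM in Polysome, where all Polysome libraries lay above Input (log2 FC 0.53, SE 0.10, adjusted p 0.000967). Without the 3 Polysome libraries that stood apart 49 of 89 genes were called lower (23.5% of all genes) and 1 higher (29.7%), and without siRNAG5 3 alone 15 were. The share of reads that went to the 99 genes was again higher in Polysome, at 3.85% (3.47% to 4.26%) against 3.02% in Input (2.97% to 3.15%). With the length and GC offsets the median turned to 0.18, with 14 lower (21.7%) and 13 higher (21.7%).

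Genes that work with the subunits differed from list to list. Mitochondrial ribosomal proteins fell much as the subunits did on silencing, with 71 of 76 values below 0 in Input and 70 of 76 in Polysome. Of all genes tested, 6.02% were called lower on silencing in Input, 4% in Polysome and 12.1% in Polysome without the 3 libraries that stood apart. The shares called higher were 10.5%, 3.95% and 9.02%. In Ctrl cells 18.8% of all genes were called lower in Polysome than in Input (19.8% without the 3 libraries). In that comparison 12 of 88 nuclear genes were called lower. All 13 subunits encoded in mitochondrial DNA were (median -3.18), led by MT-ND3 (log2 FC -4.17, SE 0.21, adjusted p 2.67e-09). On silencing they had a median of -0.18 in Input, with MT-ND6 (log2 FC -0.61, SE 0.10, adjusted p 9.1e-06) and MT-ATP8 (log2 FC -0.54, SE 0.08, adjusted p 7.41e-06) called lower, and of 0.87 in Polysome, with MT-ND4L called higher (log2 FC 1.68, SE 0.47, adjusted p 0.048) and 0 of 13 values below 0, whereas 81 of 88 nuclear values were below 0 there. Without the 3 libraries that stood apart the median of these 13 genes in Polysome was 0.15, with 5 of 13 values below 0, 0 called higher and 1 called lower. Mitochondrial ribosomal proteins, which serve the translation of these 13 mRNAs, had a median of -0.46 in Input with 26 of 76 called lower, and of -0.53 in Polysome with 20 of 76 (49 of 77 without the 3 libraries). The assembly factors outside the symbol rule had a median of -0.27 in Polysome, with 2 of 42 called lower and 1 higher (18 and 1 without the 3 libraries). Cytosolic ribosomal proteins, the best known TOP mRNAs, had a median of -0.03 in Input, with 3 of 84 called lower and 1 higher, and of -0.80 in Polysome, with 10 called lower (78 without the 3 libraries). Enzymes of the tricarboxylic acid cycle had a median of -0.18 in Input with 1 of 13 called lower, IDH3A (log2 FC -0.50, SE 0.08, adjusted p 7.53e-06), and in Ctrl cells 8 of 13 were called lower in Polysome than in Input (5 without the 3 libraries). Among 12 tested regulators, TFB2M, a factor for transcription of mitochondrial DNA, was called lower in Input (log2 FC -0.80, SE 0.09, adjusted p 3.6e-08), and 0 were called higher. In Polysome 1 of 13 regulators was called lower, TFB2M (log2 FC -0.54, SE 0.15, adjusted p 0.0435), and 1 higher, LRPPRC, which stabilises mitochondrial mRNAs (log2 FC 0.62, SE 0.15, adjusted p 0.034), while without the 3 libraries 0 were called lower and 2 higher. Of 12 genes for mobile carriers and coenzyme Q synthesis 1 was called lower in Input, CYCS, and 1 higher, COQ8B (log2 FC 0.55, SE 0.10, adjusted p 8.27e-05), and 0 passed in Polysome with or without the 3 libraries, with 4 at an unadjusted p under 0.05 in all 8.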

How the data were processed

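RNA-seq was run on 16 libraries, 4 in each of 4 groups given by the sample labels. The authors aligned reads with STAR 2.5.3a to GRCh38 with Ensembl 91 annotation and counted them per gene with QoRTs, and the deposited counts are whole numbers that were not normalised. The counting strand is not given in the sources used here. Lines that name no gene were left out: no feature (0.667% to 1.33% of reads), ambiguous and multi-mapped reads. Symbols, lengths and overlaps came from GENCODE v44, which named 57532 of the identifiers and may differ from the authors' annotation.

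Each comparison was fitted over all genes that passed filterByExpr with TMM scaling in edgeR 4.0.16 (R 4.3.3), with the quasi-likelihood test, on the groups compared only, except the difference of changes, which used all 16 libraries. Calls need a Benjamini-Hochberg adjusted p under 0.05 and an absolute log2 fold change (log2 FC) over 0.5. SE was derived from the F statistic. CPM used TMM library sizes over 16 libraries. Alternatives were DESeq2 1.42.0, RLE scaling, no filter, a replicate block, length and GC offsets, all libraries in one fit, each library left out and 3 Polysome libraries left out. On simulated counts for Polysome siRNAG5 against Ctrl, 25 of 99 planted changes of 0.8 (log2) and 85 of 99 of 1.5 were recovered over 14249 genes, and for Input siRNAG5 against Ctrl 74 of 97 and 93 of 93 over 13986 genes.

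The members and gene lists were chosen with earlier results of these data known. Genes were named where they are core or catalytic subunits or isoforms with a paralog, where they had the lowest or highest value of a complex, or where they were among the first 12 calls by p. Others, such as NDUFC1, ATP5MG and the remaining called genes, were chosen after their values were seen. RefSeq sequences of transcript starts (GRCh38.p14) were used, and the protein sequences of the subunits were not analysed here. Values of some single genes are not reported here.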

Additional observations from a re-analysis of the deposited data

Results flagged for a closer look

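In 12 of 240 groups of 4 libraries, formed from the named members with at least 1000 reads in all, 1 library lay farther from the others than Dixon's 95% critical value allows. Chance gives about 1 such group in 20. All 12 were Input groups. Input siRNAG5 3 was high for ATP5MC1 at 411 CPM (the others 372 to 379), for NDUFAF8 at 232 CPM (182 to 189) and for NDUFA8 at 321 CPM (284 to 286), which were called lower with this library included. Input siRNAG5 1 was low for NDUFAF4 at 69.0 CPM (82.7 to 83.7) and for SDHD at 77.1 CPM (111 to 114), and high for UQCRHL at 80.7 CPM (69.6 to 71.1). Input Ctrl 4 was low for ATP5MK at 498 CPM (567 to 571), for UQCR11 at 62.3 CPM (66.1 to 66.7) and for COX7C at 1575 CPM (1766 to 1799). Input Ctrl 2 was high for UQCRC2 at 353 CPM (330.0 to 334) and for ATP5F1D at 647 CPM (568 to 579.6), and Input Ctrl 1 was low for NDUFA9 at 23.1 CPM (25.7 to 26.1). No member moved one way in every library of one fraction and the opposite way in the other.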

How the results depend on the processing

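Of the single-gene results under the alternatives, 4713 kept their direction and side of the threshold, 225 passed it in addition, 124 no longer passed it and 15 turned in direction, and of the counts and medians 227 stayed, 36 moved and 2 turned. The cause was not tested for any of these. Both turned medians came with length and GC offsets in the comparisons of Polysome with Input, 0.22 in Ctrl cells (16 genes called higher) and 0.18 in siRNAG5 cells (14 lower and 13 higher). The turned genes were COX6B1 (0.53), COX8A (0.51), ATP5ME (0.56) and UQCRHL (0.57) in Ctrl cells, and in siRNAG5 cells COX5B (0.59), ATP5MC1 (0.67), ATP5MC2 (0.068), COX6B1 (0.51), COX7A2 (0.59), COX8A (0.62), NDUFB2 (0.55), UQCRHL (0.077), NDUFS6 (0.23), NDUFAF2 (0.045) and ATP5F1D (0.079). In Input on silencing the offsets left 9 genes lower with a median of -0.21, no filter gave 1 higher, and no size limit gave 65 lower. In Polysome on silencing the count of 6 lower became 24 without the filter (with 1 higher), 27 with DESeq2, 18 with offsets, 46 with all 16 libraries in one fit, 61 without the 3 libraries that stood apart and 60 with the 2 sets of libraries as a term. Without the 3 libraries the difference of changes gave 25 lower and a median of -0.47, and Polysome against Input in siRNAG5 cells 49 lower. With no size limit Polysome against Input gave 20 lower and 2 higher in Ctrl cells and 2 higher in siRNAG5 cells, where all 16 libraries in one fit gave 0 higher. The median level per length was 458 RPKM with canonical lengths.

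With 1 library left out at a time, the counts of genes called lower and higher and the median ran over 11 to 18, 0 to 1 and -0.36 to -0.29 in Input on silencing, 0 to 18, 0 to 1 and -0.62 to -0.37 in Polysome, 0, 0 and -0.29 to -0.08 for the difference, 9 to 16, 0 to 1 and -0.26 to -0.03 for Polysome against Input in Ctrl cells, and 15 to 29, 0 to 1 and -0.41 to -0.21 in siRNAG5 cells.

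Same-numbered libraries did not consistently deviate together. Their correlations ran from -0.04 to 0.07 in Input (0 of 4 over 0.1) and from -0.61 to 0.54 in Polysome (2 of 4). Between the fractions they ran from -0.09 to 0.22 in Ctrl cells (2 of 4) and from -0.23 to 0.23 in siRNAG5 cells (2 of 4). With 4 libraries in a group, these values cannot show whether same-numbered Input and Polysome libraries came from the same lysate. With the replicate block 11 genes were called lower in Polysome on silencing, and 15, 0, 12 and 23 in the other comparisons, as without it. A block within treatment for the difference, chosen after seeing the data, called 0. Of planted changes of 0.8 on the log2 scale for Polysome on silencing, 25 of 99 were recovered. These changes were planted in genes of any level, with counts drawn independently for each gene. The rate therefore cannot be read as the recovery for the genes described here in these 8 libraries.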
